A study of Drosophila melanogaster with 10 samples.

Results

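The 10 genes described here encode contractile proteins of the larval body wall muscle of *Drosophila melanogaster*. They are *Mhc*, *Mlc1*, *Mlc2*, *Act57B*, *Act87E*, *Tm1*, *Tm2*, *up*, *wupA* and *sls*. They were chosen by name, with earlier results of these data known, from the 17402 genes of the count table, and all 10 had enough reads to be tested. The data are polyadenylated RNA of whole female larvae in the third instar, profiled to ask which genes depend on AGO2, an Argonaute that is loaded with small interfering RNAs, and which of these depend on its slicing activity. There were 10 libraries from 5 strains, with 2 biological replicates each, numbered 3 and 4. Strain w was the control. By their labels, strains 51B and 51B/+ carried a null allele of AGO2, as homozygote and as heterozygote. The *AGO2* levels given below went against this labelled zygosity. Strains V966M and V966M/+ were labelled in the same manner for an allele that changes an amino acid of the catalytic domain. No agent was given to any strain. Larvae were used whole, so muscle RNA was measured together with that of all other organs, and fewer muscle cells and less RNA per muscle cell cannot be told apart.

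Body wall muscles of the larva are large syncytial fibres that drive crawling. In each sarcomere, thick filaments of myosin pull on thin filaments of actin. Tropomyosin and the troponin complex lie along the thin filament and block or free the myosin binding sites according to calcium. Titin-like proteins such as Sallimus, the product of *sls*, tie the filaments to the Z-disc. Contraction draws on calcium released from the sarcoplasmic reticulum and on ATP from glycolysis and mitochondria.

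Total counts ran from 22337432 to 60886803 per library, with more counts in replicate 3 than in replicate 4 of each strain. Levels are given as CPM (counts scaled to a common library total) after TMM scaling, which sets libraries to a common level over most genes. Scaling factors were highest in the V966M/+ libraries, at 1.15 and 1.26. The level of *AGO2* itself went against the labels of the null allele. It was 229 and 152 CPM in w (replicate 3, then replicate 4, as in all pairs below), 105 and 99.7 CPM in the libraries labelled 51B, and 3.85 and 2.84 CPM in those labelled 51B/+. *AGO2* RNA was thus lowest in libraries labelled as heterozygous. In V966M it was 236 and 163 CPM and in V966M/+ 249 and 194 CPM, and a change of 1 amino acid cannot be checked by such levels. In the sample titles the allele name appears doubled where the strain label reads 51B/+ or V966M/+, and once where it reads 51B or V966M. If the doubled name marked the homozygote, the libraries labelled V966M/+ would be those of the catalytic homozygote. All strain names below are those of the strain labels, and zygosity is not certain for any direction drawn from them.

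All 10 contractile genes had their lowest level of the 10 libraries in V966M/+ replicate 4. Their summed level was 24008 and 29009 CPM in w, 39630 and 42769 CPM in the libraries labelled 51B, 37077 and 30075 CPM in those labelled 51B/+, 34011 and 47266 CPM in V966M, and 16200 and 6202 CPM in V966M/+. The sum in V966M/+ was therefore 61.1% of the w mean in replicate 3 and 23.4% in replicate 4, while every library of the other mutant strains lay above both w libraries. As a share of all counts, the 10 genes took 2.56% and 2.83% in w against 1.86% and 0.783% in V966M/+. Replicate 4 of V966M/+ was below both w libraries in 10 of 10 genes and replicate 3 in 9 of 10, the exception being *sls*. Of all genes tested, 33.7% lay below both w libraries in replicate 4 and 34.4% in replicate 3.

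**Figure D1:**
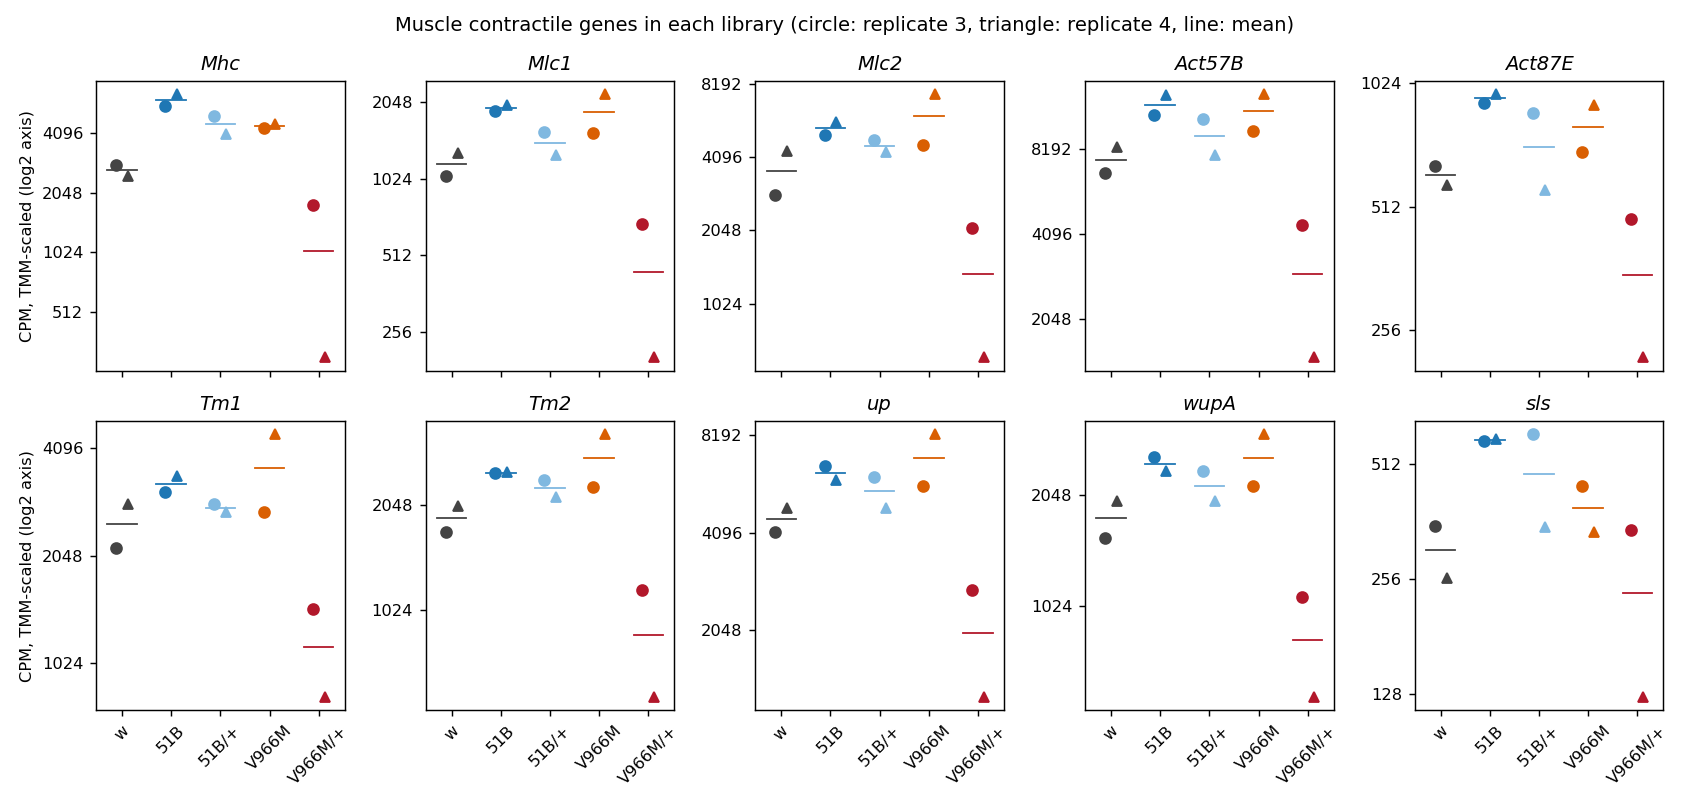
Level of each contractile gene in each library, in CPM after TMM scaling on a log2 axis, by strain label (circles, replicate 3; triangles, replicate 4; lines, mean of the 2). V966M/+ replicate 4 is the lowest point in all 10 panels, and in *Mhc* it lies at 301 CPM against 2504 to 2848 CPM in w.

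The thick filament genes had the widest range. *Mhc* (FBgn0264695, chromosome 2L, 16766566 to 16788766, dm6) encodes the myosin heavy chain of all muscles of the fly. It was counted at 2848 and 2504 CPM in w, 5630 and 6475 CPM in the libraries labelled 51B, 5046 and 4089 CPM in those labelled 51B/+, 4375 and 4600 CPM in V966M, and 1781 and 301 CPM in V966M/+. The V966M/+ libraries were below all others but differed from each other by 5.92-fold, so that their mean was 1041 CPM ± 1047 (SD, n = 2) against 2676 ± 243 in w. *Mlc1* (FBgn0002772, chromosome 3R, 27657078 to 27660177), the essential light chain of muscle myosin, stood at 1045 and 1295 CPM in w, 1888 and 1999 CPM in 51B, 1564 and 1262 CPM in 51B/+, 1543 and 2197 CPM in V966M, and 678 and 203 CPM in V966M/+. *Mlc2* (FBgn0002773, chromosome 3R, 30171438 to 30174551), the regulatory light chain, stood at 2852 and 4347 CPM in w, 5066 and 5716 CPM in 51B, 4819 and 4298 CPM in 51B/+, 4608 and 7421 CPM in V966M, and 2087 and 617 CPM in V966M/+. For both light chains the V966M/+ libraries lay below every other library, and replicate 4 reached 17.3% of the w mean in *Mlc1* and 17.1% in *Mlc2*, against 11.3% in *Mhc*.

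The actin *Act57B* (FBgn0000044, chromosome 2R, 20944021 to 20946431), a muscle actin of the larva, was the most counted of the 10 genes. It measured 6697 and 8274 CPM in w, 10736 and 12719 CPM in 51B, 10410 and 7776 CPM in 51B/+, 9446 and 12769 CPM in V966M, and 4399 and 1492 CPM in V966M/+. *Act87E* (FBgn0000046, chromosome 3R, 13425983 to 13428375), another muscle actin, measured 644 and 576 CPM in w, 916 and 961 CPM in 51B, 866 and 562 CPM in 51B/+, 696 and 906 CPM in V966M, and 478 and 220 CPM in V966M/+. In both actins the V966M/+ libraries did not overlap those of any other strain, and replicate 4 was at 19.9% of the w mean in *Act57B* and 36.0% in *Act87E*. The coding regions of the fly actins are nearly identical, so the origin of short actin reads is uncertain. An exon of *Act57B* also overlaps the snoRNA gene *snoRNA:660* on the same strand by 96 bases, and one of *Act87E* overlaps *lncRNA:CR45591* on the opposite strand by 60 bases.

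Tropomyosin genes differed less between the V966M/+ libraries than the myosin genes. *Tm1* (FBgn0003721, chromosome 3R, 15278220 to 15308779) encodes muscle and cytoplasmic tropomyosins. It was at 2157 and 2867 CPM in w, 3099 and 3426 CPM in 51B, 2860 and 2713 CPM in 51B/+, 2720 and 4496 CPM in V966M, and 1456 and 822 CPM in V966M/+. *Tm2* (FBgn0004117, chromosome 3R, 15310193 to 15315197), the neighbouring tropomyosin gene, was at 1720 and 2040 CPM in w, 2539 and 2547 CPM in 51B, 2429 and 2159 CPM in 51B/+, 2313 and 3287 CPM in V966M, and 1164 and 572 CPM in V966M/+. Replicates of V966M/+ differed by 1.77-fold in *Tm1* and 2.03-fold in *Tm2*, and both lay below the other 8 libraries in each gene. *Tm1* shares 280 exon bases with *l(3)neo43* on the opposite strand, and reads were counted without regard to strand.

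The troponin genes were likewise lowest in V966M/+. *up* (FBgn0004169, chromosome X, 13593474 to 13602578) encodes troponin T, which binds tropomyosin. Its level was 4122 and 4868 CPM in w, 6566 and 5949 CPM in 51B, 6092 and 4890 CPM in 51B/+, 5691 and 8245 CPM in V966M, and 2731 and 1270 CPM in V966M/+. *wupA* (FBgn0283471, chromosome X, 18105568 to 18116922) encodes troponin I, the inhibitory subunit. Its level was 1570 and 1981 CPM in w, 2602 and 2380 CPM in 51B, 2377 and 1976 CPM in 51B/+, 2171 and 3005 CPM in V966M, and 1083 and 579 CPM in V966M/+. In V966M/+ replicate 4 the troponin genes kept 28.3% (*up*) and 32.6% (*wupA*) of the w mean, a larger share than the myosin genes.

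*sls* (FBgn0086906, chromosome 3L, 2039681 to 2115611), the titin-like gene, departed from the other 9. It stood at 352 and 258 CPM in w, 588 and 596 CPM in 51B, 613 and 350 CPM in 51B/+, 447 and 339 CPM in V966M, and 344 and 125 CPM in V966M/+. Replicate 3 of V966M/+ lay between the w libraries, and only replicate 4, at 41.1% of the w mean, lay below both. Its exons overlap *asRNA:CR42860* on the opposite strand by 1089 bases.

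Per kilobase of exon, the order of the genes in w was *Act57B* (4342 CPM per kb), *up* (1777), *Mlc2* (1575), *wupA* (898), *Mlc1* (827), *Tm2* (719), *Act87E* (307), *Mhc* (295), *Tm1* (256) and *sls* (5.17). Exon lengths were those of all annotated isoforms together, from 1414 bases for *Mlc1* to 58996 bases for *sls*, so genes with many isoforms are understated. The w libraries overlapped between *up* and *Mlc2*, among *wupA*, *Mlc1* and *Tm2* as neighbours, and among *Act87E*, *Mhc* and *Tm1* as neighbours. Within each w library the order was nonetheless the same, except that *Tm1* lay above *Act87E* and *Mhc* in replicate 4. Differences between these neighbours were not tested. *Act57B* ranked highest and *sls* lowest in all 5 strains by mean level per kb, and *Tm1* ranked 9 in 4 of them. *Mhc* ranked 7 in the libraries labelled 51B and 51B/+ and in V966M, but 9 in V966M/+, where it had 197 CPM per kb in replicate 3 and 33.2 in replicate 4.

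The make-up of the contractile reads changed in V966M/+ replicate 4 as well. *Mhc* gave 4.86% of the counts of the 10 genes there, against 8.63% to 15.1% in the other 9 libraries. *Mlc1* and *Mlc2* also had their lowest shares there, at 3.27% and 9.95%, as did *Act57B* (24.1%). *Act87E* (3.55%), *Tm1* (13.3%), *Tm2* (9.23%), *up* (20.5%) and *wupA* (9.34%) had their highest. The reads of that library were thus weighted toward tropomyosin and troponin, the regulatory proteins of the thin filament. In V966M/+ replicate 3 the share of *Mhc* was 11.0% and lay within the range of the other strains.

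**Figure D2:**
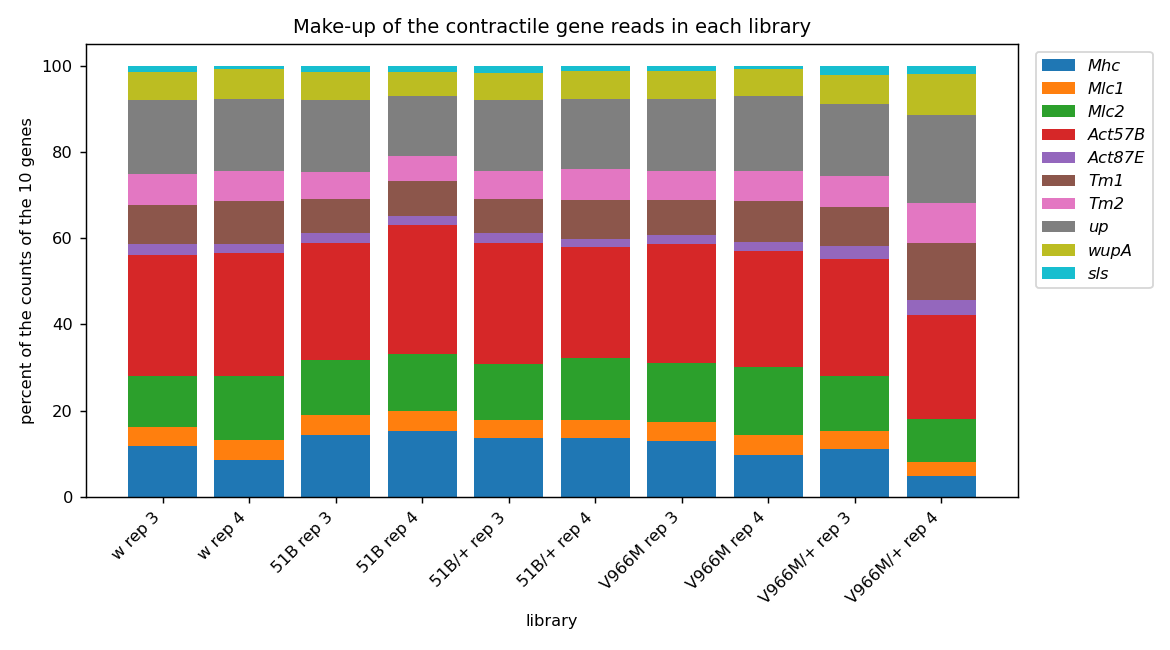
Share of each gene in the counts of the 10 contractile genes (percent, stacked bars) in each library. The *Mhc* part is narrowest in V966M/+ replicate 4, at 4.86% of these counts.

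Against w, which all 4 mutant strains share as control, no contractile gene passed an adjusted p of 0.1 in the edgeR quasi-likelihood test of all 13551 tested genes. In V966M/+ the median log2 fold change of the 10 genes was -1.15, beside 0.00 over all genes tested. The values ran from -0.38 in *sls* to -1.41 in *Mlc1* and *Mlc2*. The lowest adjusted p from edgeR was 0.241, in *wupA* (log2 difference -1.10 ± 0.34 SE), and 1.14% of all genes tested were called. At an unadjusted p under 0.05 there were 7 of the 10 genes, beside 11.2% of all genes tested. Both V966M/+ libraries lay below both w libraries in 9 of 10 genes, beside 21.2% of all genes tested. The size of the difference moved with replicate 4. Without it the median was -0.70 and 0 genes were called, and without replicate 3 it was -1.76 and 9 genes were called, beside 3.76% of all genes. DESeq2 called 7 of the 10 genes in this comparison and 4.91% of all genes.

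The other mutant strains lay above w in median, with 0 of 10 genes called by edgeR in each. For the libraries labelled 51B the median log2 fold change was 0.60, from 0.38 (*Tm1*) to 1.18 ± 0.63 SE (*Mhc*), with 0 genes at an unadjusted p under 0.05. All 10 genes were above both w libraries in both libraries labelled 51B, beside 19.3% of all genes tested, and 0.738% of all genes were called. DESeq2 also called 0 of the 10. A fit of those 2 strains alone called *Mhc* (edgeR adjusted p = 0.0679) and *sls* (0.0676), with 5.74% of all genes. A fit without the V966M/+ libraries, added after the data were seen, called *Mhc* (edgeR adjusted p = 0.0963), with 1.455% of all genes. In it the SE of *Mhc* was 0.25 against 0.63, and *Mhc*, *sls*, *Mlc1* and *Act87E* had an unadjusted p under 0.05. The main fit takes 1 spread per gene from all libraries, V966M/+ included. For V966M the median was 0.57, from 0.37 to 0.75, with 0 genes at an unadjusted p under 0.05. Both V966M libraries were above w in 8 of 10 genes, against 15.6% of all genes, and 0.125% of all genes were called. For the libraries labelled 51B/+ the median was 0.29, from 0.15 to 0.77, with 0 genes at an unadjusted p under 0.05. They were above w without overlap in 3 of 10 genes, namely *Mhc*, *Tm2* and *up*, near the 19.7% of all genes, and 1.79% of all genes were called. DESeq2 called 0 of the 10 in V966M and in the libraries labelled 51B/+.

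Between homozygote and heterozygote of the catalytic allele, as labelled, 7 of 10 contractile genes were higher in V966M than in V966M/+. The share of all genes called higher was 5.67%. By edgeR the log2 fold changes were 2.15 ± 0.54 SE for *Mlc2* (adjusted p = 0.0709), 2.09 ± 0.50 for *Mlc1* (0.0629), 1.92 ± 0.49 for *Act57B* (0.0748), 1.80 ± 0.40 for *up* (0.0536), 1.69 ± 0.36 for *Tm2* (0.050), 1.66 ± 0.37 for *Tm1* (0.0528) and 1.64 ± 0.35 for *wupA* (0.0488). *Mhc* had a difference of the same size, 2.11 ± 0.65, with a larger SE, and did not pass (edgeR adjusted p = 0.121). *Act87E* (1.2 ± 0.37, edgeR adjusted p = 0.121) and *sls* (0.74 ± 0.45, edgeR adjusted p = 0.416) did not pass either. The median over the 10 genes was 1.74, beside -0.02 over all genes, and both V966M libraries were above both V966M/+ libraries in 9 of 10 genes, beside 24.8% of all genes. Calls were lost over the whole genome when either replicate 4 was left out, with 0.126% of all genes still called higher in each case. Of the 10 genes 0 were then called, while their median was 1.33 without V966M/+ replicate 4 and 1.46 without V966M replicate 4. Without V966M/+ replicate 3 all 10 were called, beside 6.08% of all genes.

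The libraries labelled 51B/+ and V966M/+ were compared as the strains labelled heterozygous. Of the 10 genes, 3 were higher in 51B/+ by edgeR, namely *up* (log2 difference 1.46 ± 0.40 SE, adjusted p = 0.0924), *Tm2* (1.40 ± 0.36, 0.0799) and *wupA* (1.39 ± 0.35, 0.0748), while 4.52% of all genes were called higher. All 10 had an unadjusted p under 0.05, as had 19% of all genes, with log2 fold changes from 1.03 in *Act87E* to 2.13 in *Mhc*, a median of 1.43, and no overlap of libraries in 10 of 10 genes, beside 26% of all genes. Without V966M/+ replicate 4 the median was 1.0 and 0 of the 10 genes were called, beside 0.652% of all genes called higher. Without 51B/+ replicate 3 it was 1.30 with 0 called, beside 0.702%, and without V966M/+ replicate 3 it was 2.04 with 10 called, beside 5.5%. In 51B/+ replicate 3 the 6 testis markers examined summed to 6.0 CPM, against 3.94 CPM in replicate 4, 4.41 and 5.55 CPM in V966M/+ and 3.85 and 4.72 CPM in w, and *aly* and *nht*, at 0 in w, had 0.285 and 0.460 CPM. Their part in the result was not tested.

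Where AGO2 alleles were compared without V966M/+, 0 contractile genes were called. The median log2 difference was 0.27 for 51B against 51B/+, with 0 of 10 genes called by edgeR beside 0.0812% of all genes. All 10 genes were above 0 there, and 8 of 10 were higher without overlap of libraries, beside 16.8% of all genes. It was 0.00 for 51B against V966M, with 0 of 10 called beside 0.118% of all genes, and 5 of the 10 genes were above 0 and 5 below. In neither comparison did a contractile gene have an unadjusted p under 0.05, and DESeq2 called 0 of 10 in both.

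**Figure D3:**
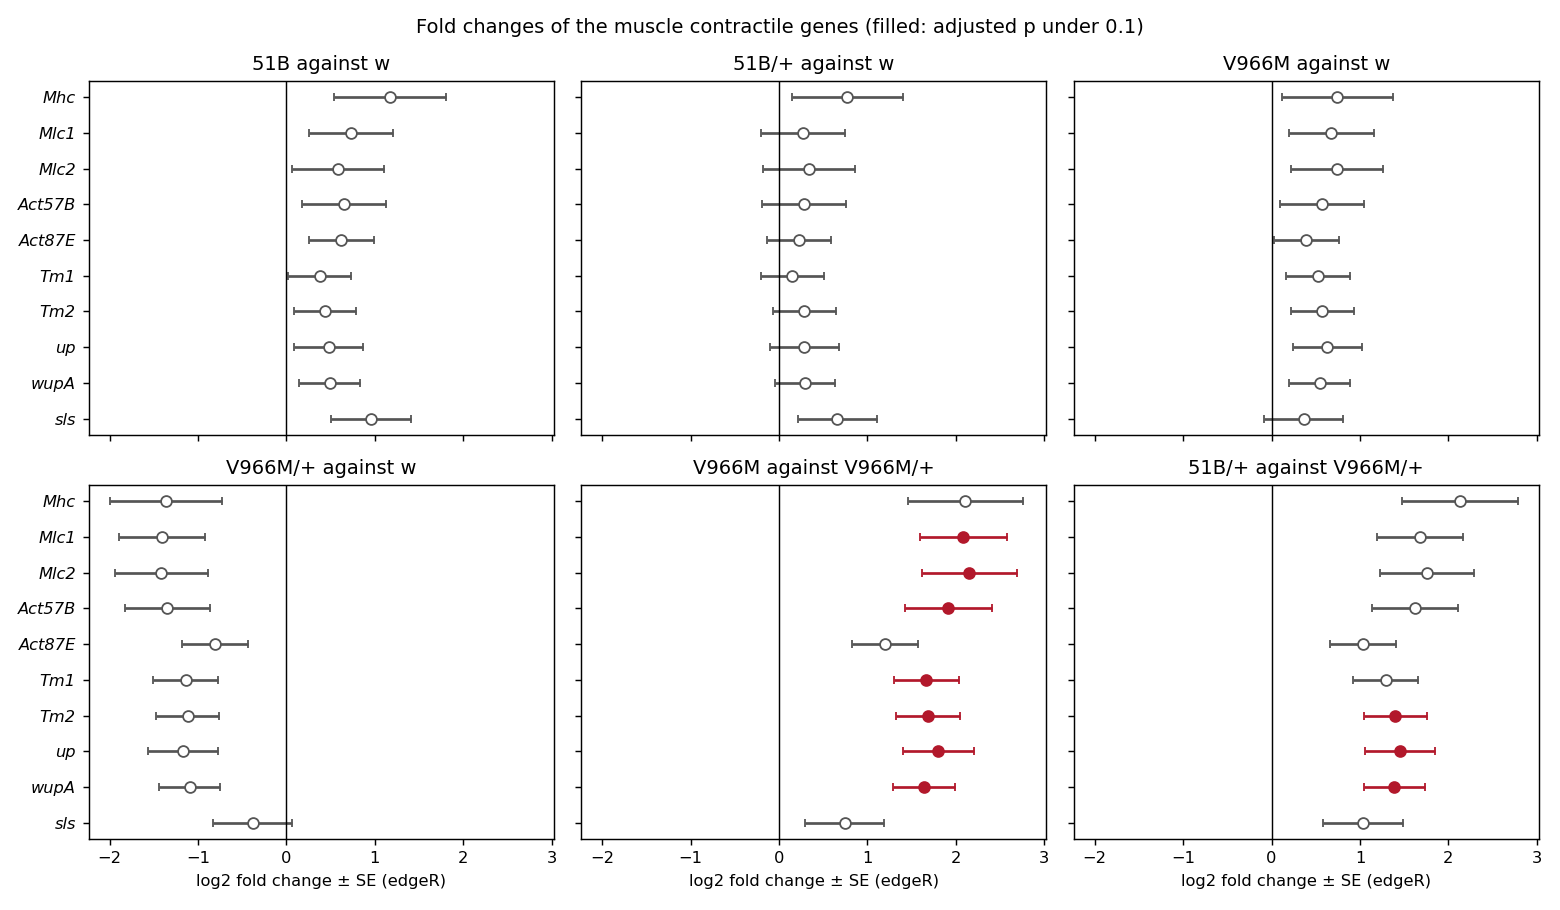
Log2 fold change of each contractile gene with its SE from edgeR, in 6 comparisons between strain labels. Filled points passed an adjusted p of 0.1, which holds for 7 genes in V966M against V966M/+ and 3 in 51B/+ against V966M/+, and for 0 genes in the comparisons with w.

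The direction of the median against V966M/+ was the same under TMM, RLE and library totals. With library totals in place of TMM, the median of all genes shifted to 0.22 in V966M/+ against w and to -0.39 in V966M against V966M/+. Relative to that shift the contractile genes stood at -1.15 and at 1.78, and 8 of 10 were called higher in the latter. In 51B against w and V966M against w the shift was -0.23 and -0.15, and the contractile genes stood at 0.63 and 0.59 relative to it. In 51B/+ against V966M/+ the shift was -0.26 and the genes stood at 1.42 relative to it. The split of calls over all genes moved from 768 higher and 140 lower to 624 higher and 2194 lower in V966M against V966M/+, and from 612 and 211 to 451 and 765 in 51B/+ against V966M/+, where 4 of the 10 contractile genes were called higher. In V966M/+ against w it moved from 57 and 98 to 93 and 61, with 0 contractile genes called.

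Genes of other sarcomere proteins were in part higher in V966M than in V966M/+. Of 19 such genes tested, 8 passed the test as higher and 0 as lower, with a median of 1.26, beside 5.67% of all genes called higher. The largest difference was in *Mlp60A*, a muscle LIM protein, by 2.70 ± 0.70 SE on the log2 scale (adjusted p of 0.0795 from edgeR). *Mlp60A* had 274 and 742 CPM in w but 133 and 49.9 CPM in V966M/+. *TpnC47D*, a troponin C that binds calcium for the complex of *up* and *wupA*, differed by 2.05 ± 0.56 (edgeR adjusted p = 0.0926). *Actn*, the alpha-actinin that anchors thin filaments at the Z-disc, differed by 1.67 ± 0.34 (edgeR adjusted p = 0.0441). In 51B/+ against V966M/+ 6 of the 19 were higher and 0 lower, among them *Mlp60A* (2.65), *Actn* (1.37) and *TpnC73F* (1.31), beside 4.52% of all genes called higher. In V966M/+ against w 0 of 19 were called by edgeR and 5 lower by DESeq2, beside 1.14% and 4.91% of all genes called. The median there was -0.80, with 9 at an unadjusted p under 0.05, beside 11.2% of all genes. Without V966M/+ replicate 4, 0 of the 19 were called in any of these 3 comparisons.

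Genes of glycolysis and energy supply, which all tissues use to some degree, were also lower in V966M/+ than in V966M. In V966M against V966M/+ 10 of 11 were higher and 0 lower, with a median of 1.85, beside 5.67% of all genes called higher. The largest were *Eno*, enolase (2.05 ± 0.43 SE, edgeR adjusted p = 0.0487), *Pglym78*, phosphoglycerate mutase (2.03 ± 0.40, 0.0419), and *Tpi*, triosephosphate isomerase (2.0 ± 0.53, 0.0826). *Glyp*, glycogen phosphorylase, did not pass. In 51B/+ against V966M/+ *Pglym78*, *Gpdh1* and *Argk1* were higher, 3 of 11, beside 4.52% of all genes called higher. In V966M/+ against w 0 of 11 were called by edgeR and 7 lower by DESeq2, beside 1.14% and 4.91% of all genes called. The median of these 11 genes there was -1.2, with 9 at an unadjusted p under 0.05, beside 11.2% of all genes. Their summed level in V966M/+ was 58.0% and 28.2% of the w mean, beside 61.1% and 23.4% for the contractile genes. Without V966M/+ replicate 4, 0 of 11 were called in these 3 comparisons.

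Among 7 tested genes of calcium handling, *RyR*, the calcium release channel, and *SERCA*, the calcium pump of the sarcoplasmic reticulum, were higher in V966M than in V966M/+, by 1.89 ± 0.50 and 1.70 ± 0.40 SE on the log2 scale (edgeR adjusted p = 0.0832 and 0.0607). *RyR* had 32.6 and 32.4 CPM in w, and 21.0 and 6.58 CPM in V966M/+. Together with *SclB*, a sarcolamban peptide that regulates the pump, *RyR* and *SERCA* were also higher in 51B/+ than in V966M/+ (2.28, 1.45 and 1.34 on the log2 scale). Of all genes, 5.67% were called higher in V966M than in V966M/+, and 4.52% in 51B/+ than in V966M/+. The other calcium genes did not pass. In V966M/+ against w 0 of 7 were called by edgeR or DESeq2, beside 1.14% and 4.91% of all genes. There 3 had an unadjusted p under 0.05, beside 11.2% of all genes. Without V966M/+ replicate 4, 0 of 7 were called in the other pair of comparisons as well. Calls of sarcomere, energy and calcium genes were also all lost in V966M against V966M/+ without V966M replicate 4, and in 51B/+ against V966M/+ without 51B/+ replicate 3, where 17 and 90 genes of the whole table were called higher. Their medians were then 1.15, 1.45 and 0.50 in the former and 0.99, 1.35 and 0.46 in the latter.

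The genes that specify and attach muscle gave no calls by edgeR. Of 11 muscle regulators, 10 attachment genes and 7 cytoplasmic actin and myosin genes, 0 were called by edgeR in any of the 8 comparisons. Over all genes tested the share called was also small, from 0.0812% in 51B against 51B/+ to 6.70% in V966M against V966M/+. Of these 11, 10 and 7 genes, 0, 0 and 0 had an unadjusted p under 0.05 in V966M/+ against w, beside 11.2% of all genes tested. In V966M against V966M/+ 3, 2 and 1 had, beside 2572 of all 13551 genes tested. DESeq2 called 1 regulator and 1 cytoplasmic gene lower in the latter comparison, and 1 attachment gene higher in 51B against w and in 51B/+ against V966M/+. Over all genes, DESeq2 called 12.44%, 4.295% and 10.63% in these comparisons, in that order. *Mef2*, a transcription factor of muscle differentiation, was at 86.8 and 68.9 CPM in w and at 98.3 and 78.3 CPM in V966M/+. *Act5C*, a cytoplasmic actin, was at 4490 and 3694 CPM in w and at 4710 and 4480 CPM in V966M/+. In V966M/+ replicate 4 the summed level of the lists was 99.1% of the w mean for regulators, 93.2% for attachment genes and 107% for cytoplasmic actin and myosin genes. In replicate 3 these were 130%, 98.6% and 111%. Both V966M/+ libraries were above both w libraries in 3 of 11 regulators, beside 18.2% of all genes tested, and below both in 1, beside 21.2%. The log2 fold changes of the regulators in V966M/+ against w ran from -1.045 to 0.60, with 8 above 0 and 3 below. *Mef2* and *Act5C* were chosen as examples after their values were seen.

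Glutamate receptor genes, which are expressed in the muscle at the neuromuscular junction, gave calls against w. *GluRIID*, a subunit needed by all receptors of this synapse, was at 28.1 and 27.1 CPM in w, 23.0 and 21.1 CPM in 51B, 14.0 and 12 CPM in 51B/+, 20.6 and 21.3 CPM in V966M, and 13.8 and 14.4 CPM in V966M/+. It fell by 0.97 on the log2 scale in V966M/+ and by 1.08 in 51B/+ (SE 0.15 in both, edgeR adjusted p = 0.0222 and 0.0101), and was higher in V966M than in V966M/+ by 0.57 (SE 0.15, edgeR adjusted p = 0.0773). Unlike the contractile genes, *GluRIID* was as low in replicate 3 as in replicate 4 of V966M/+, although its call in V966M/+ against w was lost when V966M/+ replicate 4 or either w library was left out. There its log2 fold change stayed between -0.99 and -0.94. The call in V966M against V966M/+ was kept only without V966M replicate 3, and that in 51B/+ against w was kept whichever library was left out. *GluRIIE* rose by 1.32 in 51B/+ against w (SE 0.26, edgeR adjusted p = 0.0554). This call was lost without 51B/+ replicate 3, w replicate 3 or w replicate 4, at log2 fold changes of 1.03, 1.45 and 1.19. The other 5 of the 7 genes tested in this list, which also holds *dlg1*, not a receptor gene, were not called in any of the 8 comparisons. Of the 4 adult flight muscle genes tested, *Act79B* was called higher in V966M than in V966M/+ (1.99 on the log2 scale), at levels of 0.28 to 1.86 CPM in these strains, a call kept only without V966M replicate 3.

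**Figure D4:**
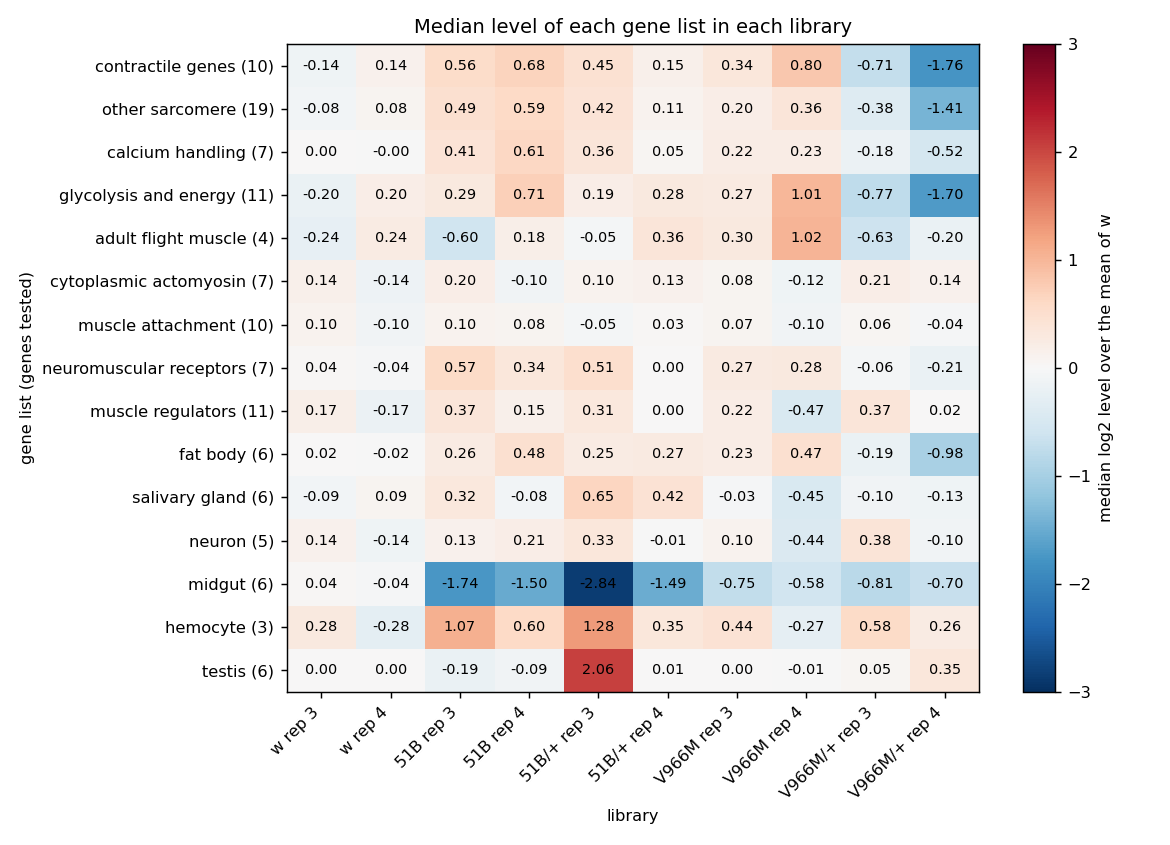
Median log2 level over the mean of w of each gene list (vertical axis, with the number of genes tested) in each library (horizontal axis), from blue (lower than w) to red (higher). In V966M/+ replicate 4 the contractile genes stand at -1.76, the glycolysis and energy genes at -1.70 and the other sarcomere genes at -1.41. The fat body markers stand at -0.98 there and the muscle regulators at 0.02.

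Markers of other organs moved between the libraries too. In V966M/+ replicate 4 the summed level was 78.7% of the w mean for 6 fat body markers, 91.2% for 6 salivary gland markers, 126% for 5 neuronal markers, 81.1% for 3 hemocyte markers and 59.9% for 6 midgut markers. In replicate 3 of V966M/+ these were 92.4%, 88.0%, 116%, 132% and 44.5%. The median of the fat body markers in replicate 4 was -0.98 on the log2 scale over w. There 4 of these 6 were below both w libraries, beside 33.7% of all genes tested. Over the 10 libraries their Pearson r with the mean of the contractile genes ran from -0.944 (*Fbp1*) to 0.972 (*Lsp1beta*). The midgut sum was below that of w in all 8 mutant libraries, from 12.8% of the w mean in 51B/+ replicate 3 to 67.1% in V966M replicate 4. It was therefore low also where contractile genes were high. By edgeR the midgut proteases *alphaTry* and *Jon65Aiii* fell by 2.25 and 1.59 on the log2 scale in 51B against w. In 51B/+ against w they fell by 2.16 and 2.44, with *Jon65Aiv* (-2.47), and the fat body storage gene *Lsp1gamma* fell by 7.42. In 51B/+ against V966M/+, where 3 contractile genes were higher, the glue gene *Sgs4* was higher by 1.48 and *alphaTry*, *Jon65Aiii* and *Lsp1gamma* were lower (-2.15, -1.64 and -6.80). No marker of these organs or of the testis was called by edgeR in V966M against V966M/+ or in V966M/+ against w. Over all genes, 6.70% and 1.14% were called there. In V966M/+ against w, 3 of 6 midgut markers had an unadjusted p under 0.05, beside 11.2% of all genes. Without overlap, 5 of them were below w, beside 21.2%. In V966M against V966M/+, 3 of 6 fat body markers had an unadjusted p under 0.05, beside 2572 of 13551 genes. Without overlap, 4 of them were higher and 1 lower, beside 24.8% and 24.5%. The mitochondrial share of counts was lowest in V966M/+ replicate 4, at 5.57%, against 7.04% to 16.52% in the other 9 libraries. The part of these shifts in the contractile result was not tested.

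Across the 10 libraries the contractile genes varied together. The Pearson correlation of log2 CPM over 45 pairs of the 10 genes had a median of 0.975, from 0.713 (*Tm1* with *sls*) to 0.998 (*Act57B* with *Mlc1*). Without V966M/+ replicate 4 the median was 0.899, and without both V966M/+ libraries it was 0.858, with *up* and *wupA* highest (0.986) and *Tm1* with *sls* lowest (0.094). The libraries share strain, depth and scaling, so these values describe likeness only. Of 6743 other genes that averaged 10 CPM or more, the 5 most like the mean of the contractile genes were *Zasp52*, *Idh3a*, *SERCA*, *kdn* and *CG2145*, with r from 0.987 to 0.994. *Zasp52* is a Z-disc protein, *Idh3a* and *kdn* encode enzymes of the citric acid cycle in mitochondria, and *SERCA* is the calcium pump. *Zasp52* was at 387 and 390 CPM in w, 511 and 591 CPM in 51B, 475 and 444 CPM in 51B/+, 497 and 580 CPM in V966M, and 300 and 149 CPM in V966M/+. Without both V966M/+ libraries the r of the 5 genes ranged from 0.900 (*CG2145*) to 0.974 (*Idh3a*).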

How the data were processed

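Polyadenylated RNA of whole female larvae was sequenced as 50 bp single-end reads. The authors trimmed reads with cutadapt 1.10, aligned them to dm6 (FlyBase 6.11) with HISAT2 2.0.4 and counted reads over exons with featureCounts 1.5.0-p3, without strand. The deposited values are raw counts per gene, neither normalized nor pooled. All 10 columns matched a labelled sample.

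Genes with at least 10 counts over the 10 libraries (13551) were scaled by TMM and put through the edgeR 4.0.16 quasi-likelihood test (R 4.3.3), 2-sided, with all libraries in 1 fit and strain as the only factor. A gene was called where its p, adjusted by Benjamini-Hochberg over all genes tested, was under 0.1. Each SE is the log2 fold change divided by the root of F. The test was checked on simulated data. For V966M/+ against w it recovered 34% of 100 genes set to a 2-fold difference and 98% of 100 genes set to a 4-fold difference. It called 14 of the 13351 genes left unchanged. Each gene had 1 estimate of spread from all 10 libraries, so the V966M/+ replicates also entered the p-values of comparisons without that strain. A count of 0 allows up to 3 counts (0.049 to 0.134 CPM), which covers counting error only because PCR copies could not be separated. Coordinates and exon lengths came from Ensembl 115 on dm6.

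The 10 genes and all gene lists were chosen with earlier results of these data known. Of 125 listed genes, 5 (*unc-45*, *Ca-beta*, *zip*, *para*, *Nplp2*) were not matched and not analysed here. Named by rule were the 10, *AGO2*, up to 3 called genes per direction with the largest fold change in each list and comparison, and the 5 genes most like the mean of the 10. *Mef2*, *Act5C*, *Glyp*, *aly*, *nht*, *Fbp1*, *Lsp1beta*, *dlg1* and the genes that overlap the 10 were named outside this rule. Where *GluRIID*, *RyR* or *Mlp60A* met the rule in several comparisons, not all values were repeated. Replicate numbers were not used to pair the samples in the main fit, although replicate 3 also had the higher mitochondrial share in each strain. Alternatives were DESeq2 1.42.0, RLE, library totals, filterByExpr, no filter on counts, an adjusted p below 0.05, a fit of 2 strains, a replicate block, and leaving out each library. With 1 library left in a strain, edgeR assumes that it varies like the other strains.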

Additional observations from a re-analysis of the deposited data

Results flagged for a closer look

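Contractile genes drew attention where strains that carry the same or another AGO2 allele differed by a test of the difference itself. In V966M against V966M/+, edgeR called a difference in log2 level of 1.92 for *Act57B*, 2.09 for *Mlc1*, 2.15 for *Mlc2*, 1.66 for *Tm1*, 1.69 for *Tm2*, 1.80 for *up* and 1.64 for *wupA*. In 51B/+ against V966M/+ it called 1.40 for *Tm2*, 1.46 for *up* and 1.39 for *wupA*. Each of these genes was higher in both libraries of the first strain than in both of V966M/+, and each call was lost without V966M/+ replicate 4.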

How the results depend on the processing

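Leaving out 1 library at a time moved the number of contractile genes called between 0 and 10 in V966M against V966M/+ and in 51B/+ against V966M/+, and between 0 and 9 in V966M/+ against w. Median log2 fold changes then ran from 1.33 to 2.36, from 1.0 to 2.04 and from -1.76 to -0.70. They ran from 0.43 to 0.71 for 51B, from 0.14 to 0.44 for 51B/+, and from 0.34 to 0.79 for V966M, each against w, from 0.17 to 0.46 for 51B against 51B/+ and from -0.22 to 0.29 for 51B against V966M. An adjusted p under 0.05 left 2 calls in V966M against V966M/+ and 0 in 51B/+ against V966M/+, and a fit of the 2 strains alone left 0 in both, at medians of 1.75 and 1.43 and with 17 and 62 genes called in the whole table. That fit called 2 genes in 51B against w, and leaving the V966M/+ libraries out, an alternative chosen after seeing the data, called 1. In 51B/+ against V966M/+, filterByExpr gave 5 calls, no count filter 6 and DESeq2 9, beside 6.42%, 3.74% and 7.87% of all genes called higher. DESeq2 gave 7 in V966M/+ against w, beside 4.91% of all genes called. Library totals without TMM lowered the median to 0.40 in 51B against w and to 0.12 in 51B against 51B/+. Same-numbered libraries deviated together with r from 0.04 to 0.42 over 10 pairs of strains. The main fit did not pair them, and what they share was not tested. With the replicate block, 6 genes were called in 51B/+ against V966M/+ and 8 in V966M against V966M/+. Beside them, 8.08% and 9.62% of all genes were called higher. Calls over all genes rose with the block from 908 to 1800 in V966M against V966M/+ and from 100 to 358 in 51B against w. Direction turned, with no call, in *Act87E* (51B/+ against w, from -0.12 to 0.48, lowest without 51B/+ replicate 3), *Tm1* (51B/+ against w, from -0.057 to 0.37, lowest without w replicate 3) and *sls* (V966M/+ against w, from -1.28 to 0.19, highest without V966M/+ replicate 4). It also turned under some alternative in 2 of the 10 genes in 51B against 51B/+ and in 7 in 51B against V966M, with 0 called there. The cause was not tested in any of these. Of the alternative counts and medians, 167 stayed within 1.5 times the count or 1 SD of the median, and 27 did not. What depth limits was not tested.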
